A study of Drosophila melanogaster with 2 samples.

Results

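Genes for eukaryotic translation initiation factors (eIF), elongation factors (eEF) and release factors (eRF) were examined for promoter binding of CG1603, a zinc-finger protein of *Drosophila melanogaster*. Members were all protein-coding genes of the Ensembl annotation whose symbol starts with eIF, eEF or eRF, which gave 54 of 13968 genes. They comprised 44 initiation factor genes, 8 elongation factor genes and 2 release factor genes. Genes entered by symbol and not by a measured value, but the group was chosen with earlier results of these data known.

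The study mapped CG1603 by chromatin immunoprecipitation with sequencing in whole embryos, males and females pooled, at 0 to 16 h of age. All embryos came from 1 transgenic line that stably carries CG1603 with GFP fused to its C terminus, and the description names an antibody against GFP. The 2 samples, biological replicates 2 and 3, form 1 group, so that no treatment or genotype is compared. Whole embryos mix all cell types, and a peak does not show in which of them binding occurred. Deposited peak lists hold 30000 peaks for each replicate, 30000 for the pooled replicates and 8963 in a reproducible list. Peak lists do not give the read depth, and control peaks were not analysed here. Below, rank 1 is the peak with the strongest deposited signal of a list. A gene is called bound if a summit of the reproducible list lies within 500 bp of the transcription start site (TSS) of one of its protein-coding transcripts.

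Translation factors act in a fixed order. Initiation factors bring the initiator tRNA, the small ribosomal subunit and the capped mRNA together and select the start codon, and the large subunit then joins. Elongation factors deliver aminoacyl-tRNAs and move the ribosome along the mRNA, and release factors end the chain at a stop codon. The genes are needed in most cells, but several have a duplicate whose use is restricted to the testis in flies.

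Promoter sequences of 3 of the 5 members with the strongest reproducible peaks are shown first, as examples of promoters that hold a short element. The strongest member, *eEF5*, had no match to it in its promoter window or within 50 bp of its summit, and *eIF6*, the second strongest, had one in its promoter. The element is the DNA replication-related element (DRE), an 8-base palindrome known as the site of the factor DREF. The 150 bases before the most upstream TSS follow for *eEF1delta* (chr2L:10232357-10232506, plus strand), *eIF4B* (chr3L:27858272-27858421, minus strand) and *eEF1gamma* (chr3R:29220022-29220171, plus strand), from the RefSeq release 6 genome on dm6 coordinates. None of the stretches overlaps an exon of a protein-coding gene. They are written along the gene's strand, and capitals mark the DRE and the core CGATA on either strand, the core being part of the DRE. The strongest summits fall on base 100, base 83 and base 129 of these stretches.
eEF1delta: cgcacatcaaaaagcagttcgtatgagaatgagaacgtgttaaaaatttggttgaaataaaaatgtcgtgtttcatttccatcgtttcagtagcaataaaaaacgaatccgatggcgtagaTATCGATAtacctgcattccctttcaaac
eIF4B: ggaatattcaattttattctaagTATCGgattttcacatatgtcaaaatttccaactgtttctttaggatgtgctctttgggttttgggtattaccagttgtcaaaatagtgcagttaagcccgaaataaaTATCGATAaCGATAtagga
eEF1gamma: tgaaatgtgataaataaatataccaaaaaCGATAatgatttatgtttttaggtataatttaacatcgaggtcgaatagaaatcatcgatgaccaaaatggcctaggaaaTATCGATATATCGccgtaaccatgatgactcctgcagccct

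Of the 54 members, 33 were bound (61.1%), against 35.2% of all protein-coding genes. Elongation and release factor genes were bound in 9 of 10 cases and initiation factor genes in 24 of 44 (54.5%). No test was made between these shares, because members were taken as a list and peaks are not replicates. The bound members had a median rank of 2899, against 3209 for all bound genes. Their ranks ran from 2 to 8519, and 15 of the 33 ranked 1 to 2240 in the reproducible list (45.5%, against 34.7% of all bound genes). The 2 replicates named nearly the same members, as shown by the plot of ranks per replicate. Among their strongest 8963 peaks, replicate 2 marked 33 members (34.3% of all genes) and replicate 3 marked 37 (37.4% of all genes), with 32 members in both. Over all genes these peaks marked 4798 in replicate 2 and 5226 in replicate 3, with 4457 in both. In the full lists a summit was within 500 bp for 38 members in replicate 2 (46.7% of all genes), 42 in replicate 3 (50.4%) and 37 in the pooled list (47.0%). All 38 of replicate 2 were among the 42 of replicate 3, and of all genes 6041 of the 6529 of replicate 2 were also in replicate 3. Spearman's rho of the replicates' signals was 0.939 over the 38 members, close to the 0.930 over the 6041 genes. This is a description across genes that share 2 libraries.

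**Figure D1:**
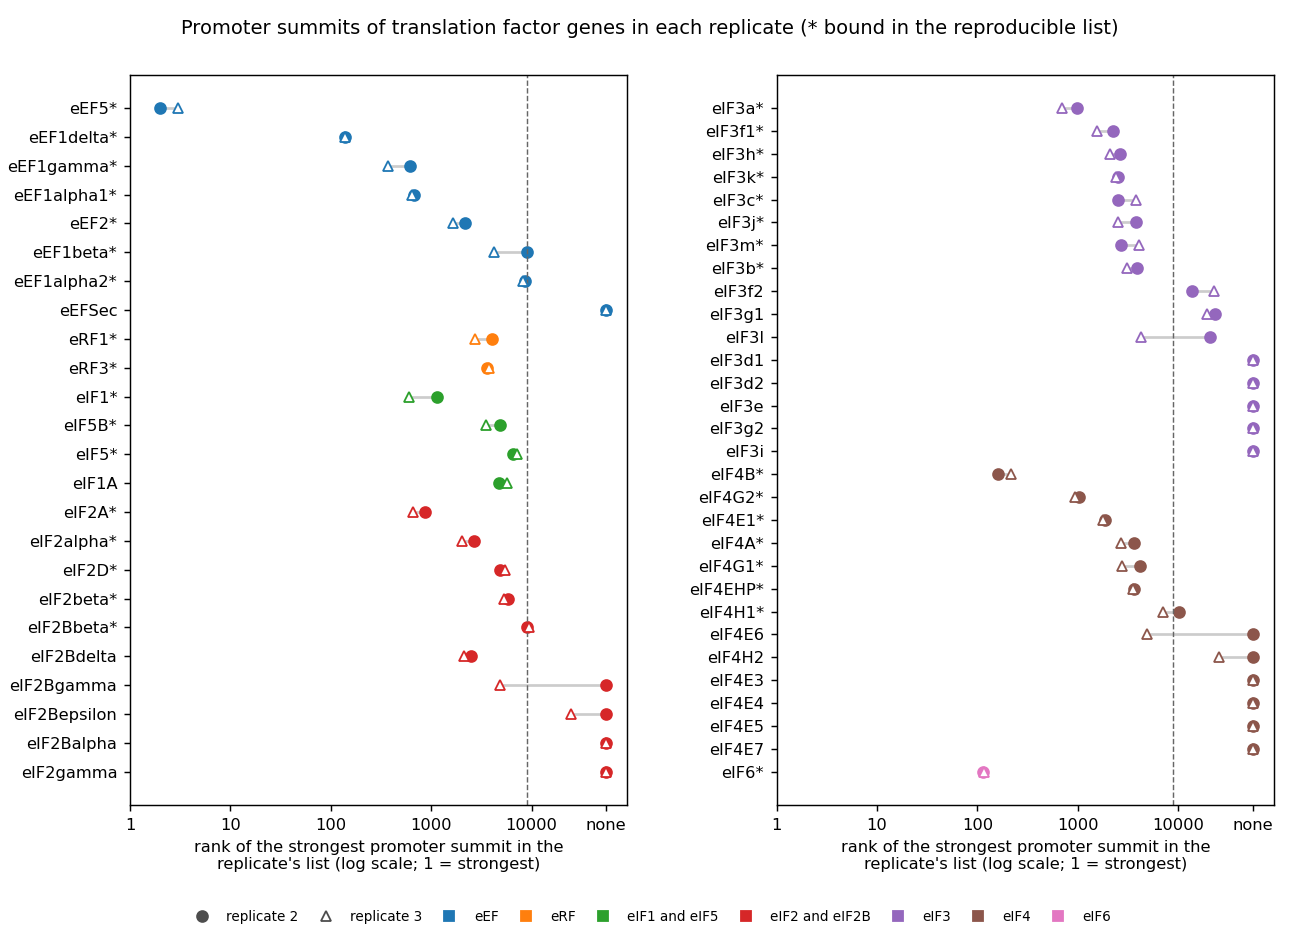
Rank of the strongest summit within 500 bp of a TSS of each translation factor gene in replicate 2 (filled circles) and replicate 3 (open triangles), on a log axis, with genes grouped and coloured by factor class. The dashed line marks rank 8963, "none" means no summit in that list, and an asterisk marks the 33 genes bound in the reproducible list. Most genes have both replicates close together, while *eIF2Bgamma*, *eIF4E6*, *eIF2Bepsilon* and *eIF4H2* have a summit in replicate 3 and none in replicate 2.

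The strongest peak of all members was at an elongation factor gene, and the second strongest at the initiation factor gene *eIF6*. *eEF5* encodes the factor also known as eIF5A, which helps the ribosome past stalling sequences. Its peak ranked 2 in replicate 2 (signal 14320) and 3 in replicate 3 (signal 12757), with the reproducible summit 37 bp upstream of its first TSS. The peak was 902 bp wide, against a median width of 246 bp in the reproducible list. The 3 genes of the nucleotide exchange complex that recharges eEF1A with GTP differed widely. *eEF1delta* ranked 139 in both replicates (signals 1835 and 1603) with the reproducible summit 51 bp upstream of its TSS. *eEF1gamma* ranked 622 in replicate 2 and 373 in replicate 3. *eEF1beta* had one of the weakest bound promoters of the class, with rank 9081 (signal 72.67) in replicate 2 and rank 4195 (signal 166.3) in replicate 3. It thus lay outside the strongest 8963 peaks of replicate 2. *eEF2*, the gene of the translocase, ranked 2151 and 1631 with a summit 7 bp upstream of the second of its 2 TSSs.

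Both genes of eEF1A, the carrier of aminoacyl-tRNA, were bound, but at different strength. *eEF1alpha1* ranked 670 in replicate 2 (signal 604.5) and 639 in replicate 3 (signal 558.2). *eEF1alpha2* ranked 8625 (signal 77.52) and 8244 (signal 83.50). *eEF1alpha1* has 4 TSSs, and its strongest summit lay 63 bp upstream of the third. Another 2 reproducible summits lay 109 and 248 bp upstream of its TSSs, at rank 3092 and 8881. *eEFSec*, which encodes the elongation factor for selenocysteine, was the unbound member of the class. It had no summit in any list, and the nearest reproducible summit was 14004 bp away.

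Both release factor genes were bound. *eRF1*, whose product reads the stop codon, ranked 4059 in replicate 2 and 2736 in replicate 3, with a summit 63 bp upstream of its TSS. *eRF3*, which encodes the GTPase partner of eRF1, ranked 3591 and 3743. The summit at *eRF3* lay 450 bp upstream of its TSS in the reproducible list and in both replicates. The same summit was 36 bp from a TSS of *SC35*, a splicing factor gene on the opposite strand. A weaker reproducible summit of rank 5706 lay 189 bp downstream of a TSS of *eRF3*.

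**Figure D2:**
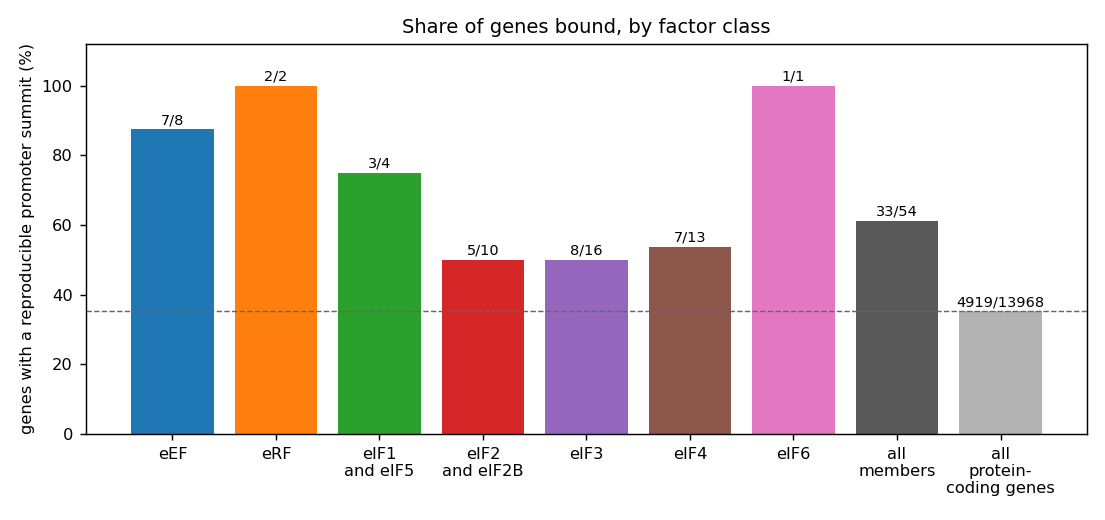
Share of translation factor genes called bound in each factor class, with the number bound and the number of genes above each bar. The dashed line is the share of all 13968 protein-coding genes (35.2%). The elongation factor class reaches 7 of 8 genes, the eIF2 and eIF2B class 5 of 10, and the eIF3 class 8 of 16.

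Factors that select the start codon or join the subunits were bound in 3 of 4 cases. *eIF1*, a gatekeeper of start codon choice, ranked 1148 and 596, but its summit lay 346 bp upstream of its TSS and 35 bp from a TSS of *RpL28*, a ribosomal protein gene on the opposite strand. *eIF5B*, the GTPase of subunit joining, ranked 4863 and 3479, with the summit 133 bp upstream of its second TSS. *eIF5*, whose product triggers GTP hydrolysis on eIF2, ranked 6575 and 7110. Its summit lay 23 bp downstream of a TSS that the annotation also gives to *CG46312*, so that the peak cannot be given to 1 of them. *eIF6*, the gene of a factor that keeps the ribosomal subunits apart, had a strong peak at rank 114 (signal 2257) and 117 (signal 1826), with a summit 102 bp upstream of its TSS.

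The genes of the eIF2 complex, which carries the initiator tRNA, were split. *eIF2alpha* ranked 2681 in replicate 2 and 2004 in replicate 3, with a reproducible summit 29 bp upstream of its TSS. *eIF2beta* ranked 5829 and 5327, and its summit lay 65 bp downstream of the TSS in replicate 2 but 57 bp upstream in replicate 3. *eIF2gamma* had no summit within 500 bp in any list, and the nearest reproducible one was 2120 bp away. It shares its upstream TSS with *Su(var)3-9*, a histone methyltransferase gene, which also had no summit in any list. *eIF2A* and *eIF2D*, whose products can bring initiator tRNA to the ribosome without eIF2, were both bound. *eIF2A* ranked 865 and 661 and had the strongest peak of the class, and *eIF2D* ranked 4862 and 5376.

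Of the 5 genes of eIF2B, the complex that reloads eIF2 with GTP, 1 was bound, against 35.2% of all protein-coding genes. *eIF2Bbeta* ranked 8943 in replicate 2, 9420 in replicate 3 and 8519 in the reproducible list, near its lower end. *eIF2Bdelta* had a summit 56 bp upstream of its TSS in replicate 2 (rank 2498, signal 263.7) and 57 bp upstream in replicate 3 (rank 2114, signal 284.9). Yet neither the pooled nor the reproducible list had a summit within 500 bp of it. The nearest pooled peak, of rank 3413, had its summit 735 bp upstream, and each replicate had a peak there as well. *eIF2Bgamma* had a promoter summit in replicate 3 (rank 4880) and none in replicate 2, with a peak 1257 bp upstream in the pooled list. *eIF2Bepsilon* had a weak replicate 3 summit of rank 24861, and *eIF2Balpha* had none. Of these genes *eIF2Bdelta* and *eIF2Bgamma* were the members nearest to the distance limit from outside. From inside, the closest summits of *eIF1* and *eRF3*, at 346 and 189 bp, were nearest to it.

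**Figure D3:**
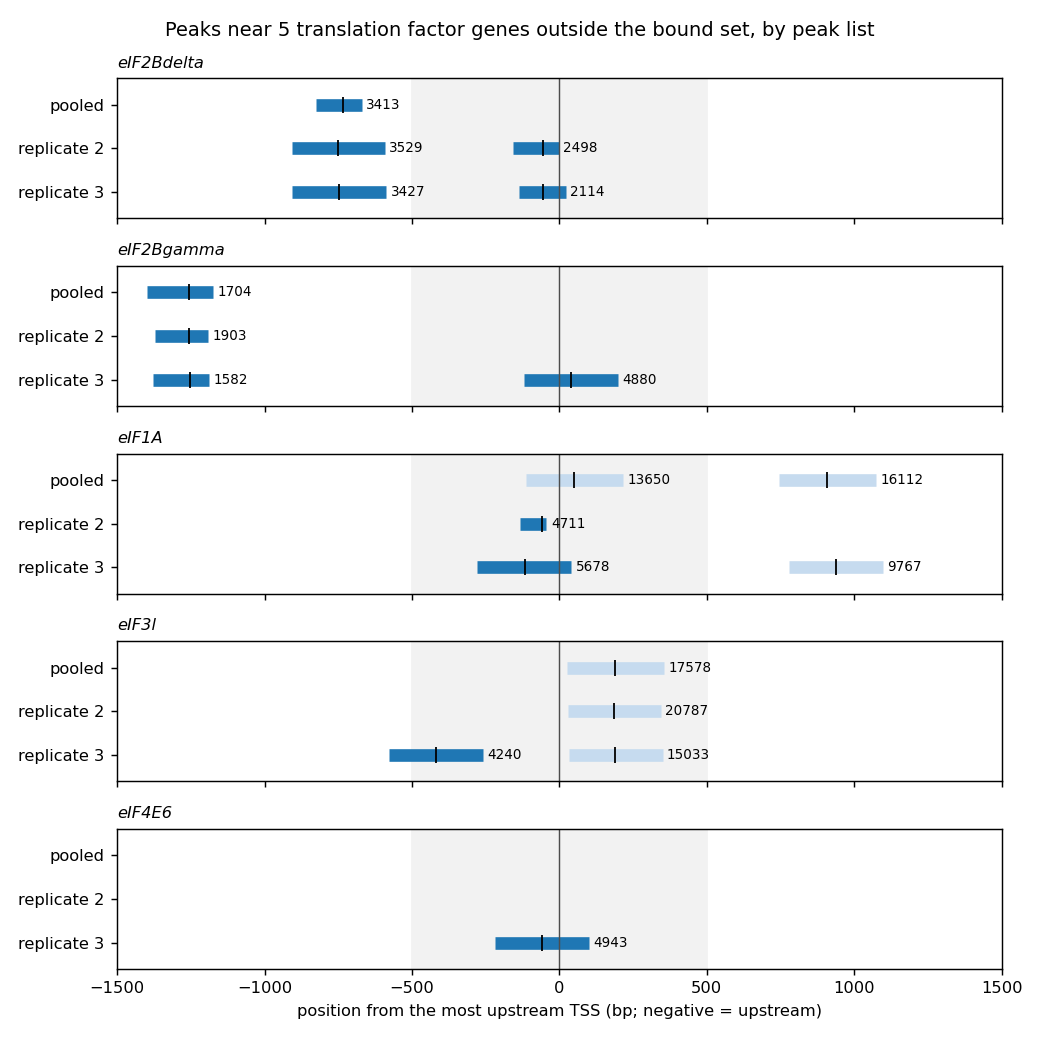
Peaks of the pooled list and of each replicate around 5 unbound members, by distance from the most upstream TSS in bp. Bars are peaks, black ticks their summits and numbers their ranks. Dark bars rank within the strongest 8963 of their list, and grey shading marks 500 bp to either side. *eIF2Bdelta* has a promoter peak in both replicates (rank 2498 and 2114) and none in the pooled list, and *eIF4E6* has a peak in replicate 3 alone (rank 4943).

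A related case was *eIF1A*, whose product scans with eIF1. Its replicate peaks ranked 4711 (signal 154.8) in replicate 2 and 5678 (signal 125.1) in replicate 3, with summits 60 and 118 bp upstream of a TSS. The pooled list had a weaker peak there, of rank 13650 (signal 83.01), with its summit 18 bp downstream of its nearest TSS. *eIF1A* and *eIF2Bdelta* were the 2 of 32 members among the strongest 8963 of both replicates that were missing from the reproducible list (6.25%), against 77 of 4457 of all genes (1.73%). *eIF2Bdelta* was also without a pooled summit, as were 53 of the 4457 (1.19%).

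Of the 16 genes of eIF3, the large scaffold on the small ribosomal subunit, 8 were bound and their reproducible ranks lay between 804 and 3318. This range was narrower than that of any other class with more than 2 bound genes. *eIF3a*, the gene of the largest core subunit, ranked 974 and 700. Its summit lay 46 bp from its TSS and 24 bp from that of *CG1074*, on the opposite strand. *eIF3f1* ranked 2266 and 1558, *eIF3k* 2490 and 2415, *eIF3c* 2500 and 3829, and *eIF3j* 3758 and 2526. Their reproducible summits were 13 to 62 bp upstream of a TSS. *eIF3h* had reproducible summits 285 bp downstream (rank 2091) and 5 bp upstream (rank 2476) of its TSSs. The stronger of these was 348 bp from a TSS of *senju*. *eIF3m* and *eIF3b* shared their strongest summit with *CG8323* and *Patronin*, whose TSSs were nearer (92 and 53 bp). A weaker summit at *eIF3b*, of rank 4638, lay 58 bp downstream of a TSS, and no other gene's TSS was nearer to it.

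The unbound eIF3 genes included single-copy subunits and duplicates. *eIF3e*, *eIF3i* and *eIF3d1* had no summit within 500 bp in any list, and their nearest reproducible summits were 4372, 3711 and 10197 bp away. *eIF3l* had a weak summit at rank 20787 in replicate 2 about 185 bp downstream of its TSS. In replicate 3 it had that site at rank 15033 and another, 418 bp upstream, at rank 4240. *eIF3g1* ranked 23002 and 19299, in the weak part of both lists. Among the duplicates *eIF3d2* and *eIF3g2* had no summit in any list, and *eIF3f2* ranked 13830 and 22893. *eIF3f1* and *eIF3f2* were thus the eIF3 pair in which 1 copy was bound and the other not. In the d and g pairs neither copy was.

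In the eIF4 family, which binds the cap and unwinds the mRNA, 7 of 13 genes were bound. *eIF4B*, a stimulator of the helicase eIF4A, had the strongest peak, with rank 162 (signal 1672) in replicate 2 and rank 214 (signal 1155) in replicate 3. It lies in a repeat-rich part of 3L, where 48.8% of the 100 kb around its TSS is masked. *eIF4A* ranked 3588 and 2691 and had reproducible summits 117 and 68 bp upstream of its TSSs (rank 3117 and 3990). Both scaffold genes were bound. *eIF4G1*, on chromosome 4, ranked 4124 and 2727 with the summit 9 bp upstream of its TSS. *eIF4G2*, which is needed in spermatogenesis, ranked 1037 and 947, but shares its TSSs with *CG33111*. *eIF4H1*, another helicase stimulator, ranked 10083 and 7047, and its duplicate *eIF4H2* had a replicate 3 summit of rank 25568 and none in replicate 2.

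Copies of the cap-binding protein differed in their calls, where 35.2% of all protein-coding genes were bound. *eIF4E1*, the general cap-binding factor, ranked 1872 (signal 323.5) in replicate 2 and 1801 (signal 314.0) in replicate 3, with the summit 11 bp upstream of the first of its 4 TSSs. *eIF4EHP*, whose product binds the cap and represses translation, ranked 3658 and 3548. The other 5 eIF4E genes were unbound. *eIF4E3*, which acts in the testis, and *eIF4E4*, *eIF4E5* and *eIF4E7* had no summit within 500 bp in any list. Their nearest reproducible summits lay 42337, 37930, 9089 and 21027 bp away. *eIF4E6* had a replicate 3 peak of rank 4943 (signal 143.5) centred 60 bp upstream of its TSS, and no peak in replicate 2 or in the pooled list.

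Summits sat close to the starts of the members. The median distance to a TSS of the gene was 63 bp for the 33 bound members, against 77 bp for all 4919 bound genes. Of the members 25 had the summit within 100 bp (75.8%, against 58.1%) and 30 had it upstream (90.9%, against 86.1%). The plot of summit positions shows *eRF3*, *eIF1*, *eIF3b* and *eIF3h* apart from the others. The strongest summit of 11 members (33.3%) was also within 500 bp of a TSS of another protein-coding gene, compared with 50.5% of all bound genes. Apart from those named above, these were *eIF4EHP* with *CG18428*, *eIF4H1* with *CG34015* and *eRF1* with *Rbbp5*, where the member's TSS was the nearer. The other gene was nearer for *eIF1*, *eIF3a*, *eIF3m*, *eIF3b* and *eRF3* (15.2% of bound members, against 23.9% of all bound genes). For such promoters the peak lists cannot tell the genes apart.

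**Figure D4:**
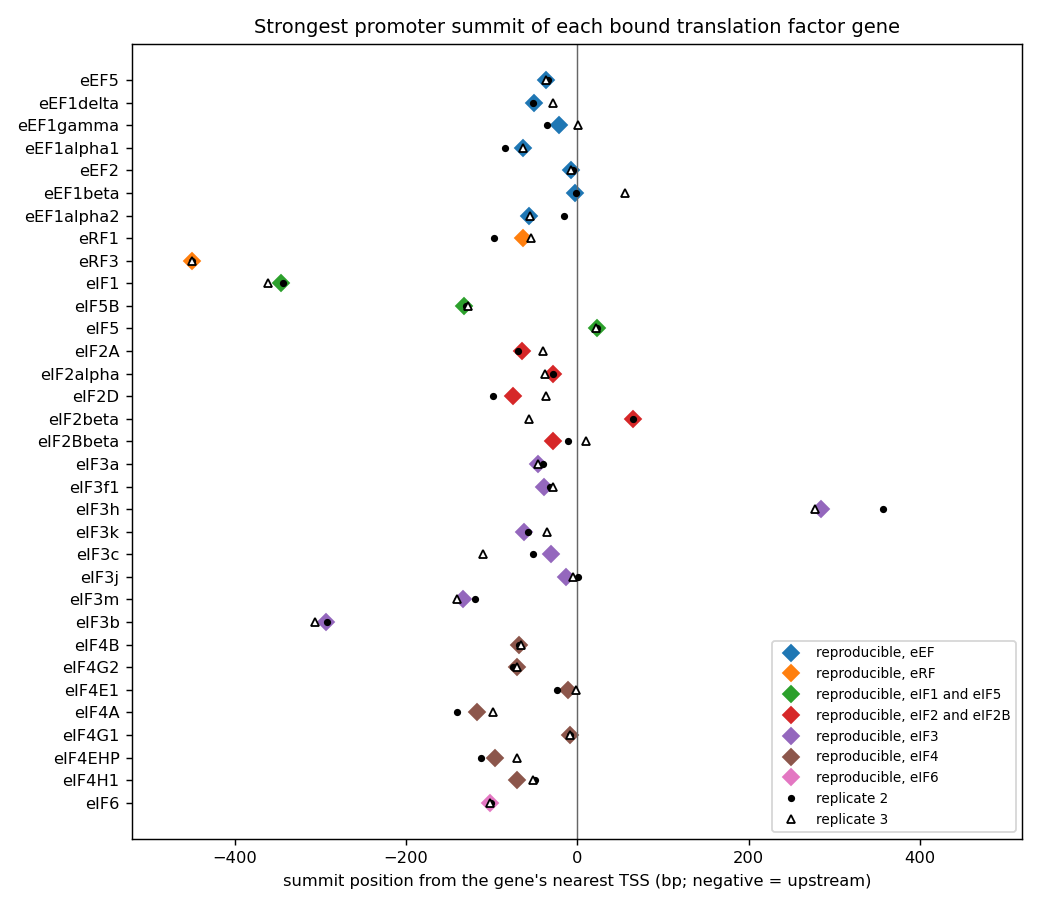
Position of the strongest summit of each bound member relative to its nearest TSS in bp, with negative values upstream, in the reproducible list (diamonds, coloured by class), replicate 2 (dots) and replicate 3 (triangles). Most summits lie within 100 bp upstream, and the 3 lists agree closely at *eRF3*, where the summit is 450 bp upstream in each.

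Sequence in the members' promoters was compared with all promoters, in windows from 250 bp before to 50 bp after the most upstream TSS. The DRE, TATCGATA, was in 15 of 54 member promoters (27.8%), against 9.36% of all promoters. Bound members had it in 11 of 33 cases (33.3%), against 16.8% of all bound genes, and unbound members in 4 of 21, against 5.33% of all unbound genes. In those 11 the element closest to the summit was 12 to 186 bp from it, with a median of 42 bp. The core CGATA, known as a site of BEAF-32 and contained in the DRE, was in 64.8% of member promoters, against 47.3% of all. Motif 1, GGTCACACT, was in 5.56%, against 6.04%. The E-box CAGCTG was in 7.41%, against 17.6%, and GAGAG in 14.8%, against 29.7%. For CACGTG the shares were 7.41% and 4.20%, and for TATAAA 46.3% and 45.8%. These motifs were searched on both strands. A match is a description and no measure of binding by a factor.

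The elements themselves are given in 30 bases along the gene's strand, with the DRE in capitals, for bound members in which it lay within 50 bp of the strongest summit. This held for 7 of the 33 bound members (21.2%, against 10.1% of all bound genes). The 2 strongest of these, *eEF1delta* and *eEF1gamma*, are shown above. The distance from the centre of the element to the summit was 21 bp at *eIF2A* (chr3L:21824865-21824894), 20 bp at *eIF2alpha* (chrX:16446988-16447017), 12 bp at *eIF3a* (chr3R:4433915-4433944), 35 bp at *eIF3f1* (chr3R:4714172-4714201) and 42 bp at *eRF1* (chr3L:20348319-20348348). *eIF2alpha* also held Motif 1, 33 bp from its summit. At *eIF2A* the element precedes the second TSS and so lay outside the promoter window used for the counts.
eIF2A: ttactatcgctTATCGATAcaccgcgtaca
eIF2alpha: acgcaattaaaTATCGATAacaccactgtc
eIF3a: tcggcctgaacTATCGATAacgcagccagg
eIF3f1: cccacccgcacTATCGATAggcccttttct
eRF1: atattttaagaTATCGATAatgtcatcgga

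The same element was present at members that were not bound in the reproducible list, which are shown next. *eIF2gamma* had 3 copies in its promoter, centred 6, 74 and 93 bp upstream of the TSS, without a summit in any list. The first is printed (chr3R:15263449-15263478). At *eIF4E6* it was centred 55 bp upstream of the TSS (chr3R:29027214-29027243), at *eIF3l* 15 bp upstream (chr3L:12146097-12146126) and at *eIF1A* 199 bp upstream (chr3R:18274452-18274481). Unlike *eIF2gamma*, these genes had promoter summits in replicate lists. *eIF4E6* ranked 4943 in replicate 3 alone. *eIF3l* ranked 20787 in replicate 2 and 4240 in replicate 3, and *eIF1A* 4711 and 5678.
eIF2gamma: gattagagcacTATCGATAggcattgtcgg
eIF4E6: atcacgcgataTATCGATAtgtttcgattg
eIF3l: agtagtatcatTATCGATAgttggtcacac
eIF1A: atgatgatagaTATCGATAgctttagcggt

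**Figure D5:**
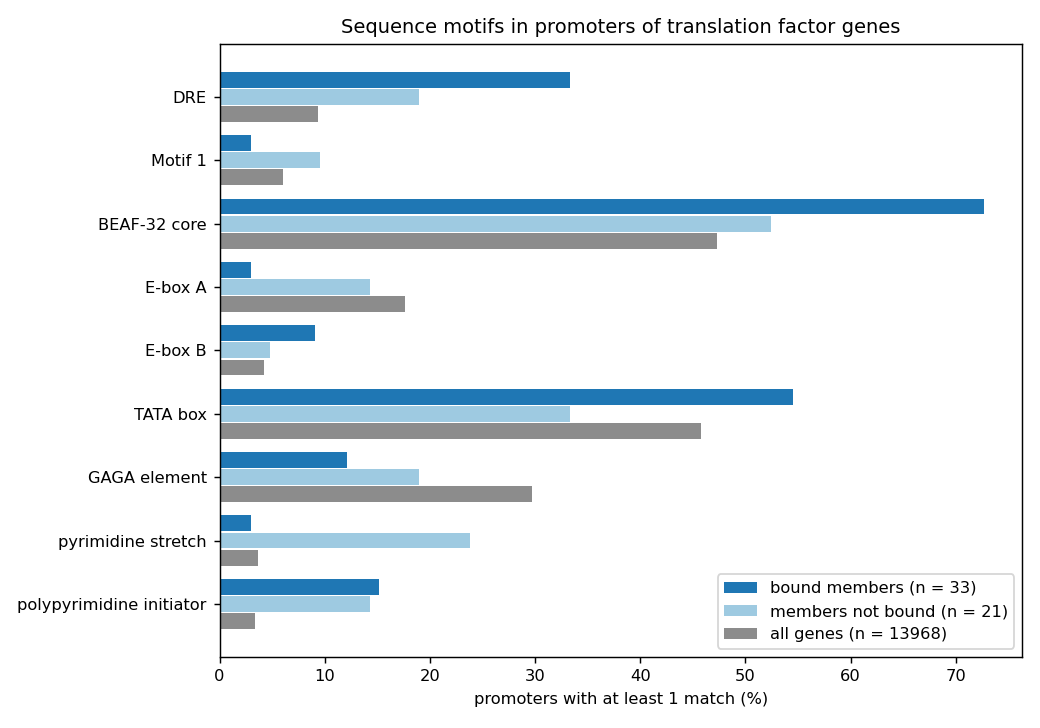
Share of promoters with at least 1 match to each sequence motif in bound members, unbound members and all protein-coding genes. The window runs from 250 bp before to 50 bp after the most upstream TSS. The row labelled polypyrimidine initiator counts TCTTT anywhere within 10 bp to either side of any TSS. E-box A is CAGCTG, E-box B is CACGTG, the TATA box is TATAAA, the GAGA element is GAGAG and the pyrimidine stretch is CTCTTTT. The DRE is in 33.3% of bound members, in 4 of 21 unbound members and in 9.36% of all genes, and the pyrimidine stretch is in 23.8% of unbound members.

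A second search was for short pyrimidine runs near a TSS, without requiring the TSS to lie within the run. Many genes of the translation machinery in flies start transcription within a polypyrimidine initiator, also called TCT motif. The letters TCTTT on the gene's strand were present within 10 bp of a TSS in 8 of 54 members (14.8%), against 3.39% of all genes. They were found in 5 of 33 bound members (15.2%, against 4.72% of all bound genes) and 3 of 21 unbound ones (14.3%, against 2.66% of all unbound genes). Any TSS of a gene counted, and members have several TSSs more often than all genes do (40.7%, against 26.5%). The longer CTCTTTT, which contains TCTTT, was searched in the wider promoter window, from 250 bp before to 50 bp after the most upstream TSS. It was in 1 of 33 bound members' promoters (3.03%, against 3.29% of all bound genes). Of the unbound members 5 of 21 had it (23.8%, against 3.89% of all unbound genes), and 3.68% of all genes did. Within 100 bp to either side of the TSS, 2 of 33 bound members had it (6.06%, against 2.18% of all bound genes). In that window 5 of 21 unbound members did (23.8%, against 2.17% of all unbound genes). The 21 bases centred on the TSS are shown, with TCTTT in capitals. The bound members *eEF5* and *eIF3m* also had TCTTT, but their bases are not printed. In each stretch the annotated TSS is the central base and lies outside the capitals. The bound genes come first: *eEF2* (chr2L:21682106-21682126, its second TSS), *eIF4A* (chr2L:5981754-5981774) and *eEF1alpha2* (chr3R:31739650-31739670, its second TSS). The unbound genes follow: *eIF3i* (chr2L:4967765-4967785), *eIF3g1* (chrX:2610326-2610346) and *eIF3d1* (chr3R:23680029-23680049).
eEF2: tgcagcgcctcgcTCTTTcct
eIF4A: gcaagatggagccTCTTTtgc
eEF1alpha2: ggatatacacggcagTCTTTa
eIF3i: cacggtcacactgcTCTTTtg
eIF3g1: cgcggcagggtaacacTCTTT
eIF3d1: tTCTTTggcggtggtatattt

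Genes that work with the cytosolic factors were read from a list of 19 partners and regulators. This list and the next were chosen with earlier results of these data known. Of the 19 genes 12 were bound (63.2%, against 35.2% of all genes), with a median rank of 1630. *me31B* and *4E-T*, whose products bind and repress mRNAs together with eIF4E, had the strongest peaks of the list. *me31B* ranked 57 in replicate 2 and 63 in replicate 3, and *4E-T* ranked 82 and 85. *bel*, an RNA helicase gene, ranked 628 and 558. *kra*, whose product resembles the C-terminal part of eIF5, ranked 1515 and 1042 and shares its summit with *SecS*. *HBS1*, a ribosome rescue gene, ranked 1611 and 1791 and shares its summit with *CG12025*. *Rack1* ranked 2102 and 1069 through a summit 433 bp upstream that also lies near a TSS of *mts*. *DENR*, *Gcn2*, *MCTS1* and *cup* were among the 7 unbound genes. *DENR* and *MCTS1* had weak pooled summits of rank 12057 and 9701.

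Factors of mitochondrial translation formed the other list, with 4 of 9 genes bound (44.4%, against 35.2% of all genes) and a median rank of 3910. *mIF2*, an initiation factor gene, ranked 3767 in replicate 2 and 2499 in replicate 3. The elongation factor genes *mEFTs* and *mEFTu1* had ranks of 4348 and 3286 and of 5078 and 5250 in these replicates. *mRF1*, a release factor gene, had rank 4288 in replicate 2 and rank 4095 in replicate 3. The summits of *mEFTs* and *mRF1* were shared with *Dhc36C* and *CG9426*. The strongest summits of *mIF2* and *mEFTu1* lay 433 and 466 bp upstream, near the limit of 500 bp. With a limit of 250 bp 3 of the 9 genes were bound, against 30.3% of all genes. The reproducible ranks of the 4 bound genes lay between 3116 and 4925, within the range of 2 to 8519 of the bound cytosolic members. *mEFG1*, *mEFTu2*, *mIF3* and *mRRF1* were among those not bound, of which *mEFG1* had a replicate 3 summit of rank 8926.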

How the data were processed

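Peaks had been called on each replicate and on both replicates pooled, with a control, and the reproducible list had been derived from these lists, per the deposited description files. Aligner and peak caller: not given in the sources used here. Signal values were deposited by the authors and their scale is not stated, so that ranks within a list were used. Summits were taken as start plus offset. All 8963 reproducible peaks were the 8963 strongest of the pooled list by signal.

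Coordinates are on dm6 per the labels. Genes and TSSs came from Ensembl release 115 (BDGP 6.54), 7 chromosome arms, and sequence from RefSeq release 6. Every member and each gene that shares its summit could be named. Of the related lists, up to 6 bound genes by rank and up to 4 unbound in alphabetical order were named. *Tor* was matched as *mTor*, and *mEFG2* is the listed *mRRF2*. The members and lists were chosen with earlier results of these data known. Nothing was tested, since 1 group without control peaks gives no contrast and genes are not replicates. The matching of summits to TSSs was tested on simulated data. Python 3.11.15, NumPy 2.4.6, pandas 2.3.3, SciPy 1.17.1 and Matplotlib 3.10.9 were used.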

Additional observations from a re-analysis of the deposited data

How the results depend on the processing

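The count of 33 bound members stayed within 1.5 times under each alternative run. It was 32 with 250 bp (30.3% of all genes), 34 with 1000 bp (39.0%), 29 with each summit given to the nearest TSS alone (27.7%), 33 with the most upstream TSS only (33.3%), 33 with any peak overlap (36.5%) and 26 with the strongest 4481 peaks (23.0%). It was 22 when summits shared with another gene were left out (17.4%), and 28 when members nearer to another gene's TSS were left out (26.8%), an alternative chosen after seeing the data. Leaving out replicate 3 gave 33 (34.3% of all genes), and leaving out replicate 2 gave 37 (37.4%). In the strongest 4481 peaks the eIF2 and eIF2B class had 2 bound genes in place of 5, and with the nearest TSS alone the release factors had 1 in place of 2, since the *eRF3* summit is nearer to *SC35*. In the full lists the median rank was 3134 over the 38 members with a summit in replicate 2. It was 2901 over the 42 members in replicate 3. These lists have another length and these sets include unbound members, so the medians are not comparable with the 2899 of the 33 bound members. Of the 33 bound members 22 kept the call in 11 alternatives, and 12 of the 21 unbound ones did. The same count is not given for all genes, so it does not show whether members are more stable than other genes. The counts are also partly fixed by the settings. The limit of 1000 bp, the full pooled list and any overlap could only add calls. The limit of 250 bp, the strongest 4481 peaks, the nearest TSS and the most upstream TSS could only remove them. Leaving out shared summits was not among the 11 alternatives. No paired analysis was possible because there is only 1 group. Depth is unknown, so a missing summit is not evidence that binding is absent.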

Other observations

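The bound members differed in which of their starts carried the summit. Of the members 22 of 54 have several annotated TSSs (40.7%, against 26.5% of all genes), and 6 of 33 bound members had several reproducible summits (18.2%, against 11.9% of all bound genes). *eEF1alpha1*, *eEF2*, *eIF2A*, *eIF3h*, *eIF3j* and *eIF5B* had the strongest summit nearest to a TSS other than the most upstream one.

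By chromosome arm, 9 of 13 members were bound on 2R (34.3% of all genes there) and 7 of 15 on 3R (36.0%). On 3L 7 of 12 were bound (34.7%), on X 4 of 7 (36.1%) and on 2L 5 of 6 (34.2%). The single member on chromosome 4 was bound, where 70.0% of all 80 genes were. Outside the member rule, *CG7483*, which RefSeq lists under the synonym eIF4AIII, was not counted.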
